A study of Mus musculus with 7 samples.

Results

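Imprinted genes are genes that mammalian cells read mainly from the copy of 1 parent. A list of 40 mouse imprinted genes was followed here in C2C12 cells, an established line of mouse myoblasts, the dividing precursors of skeletal muscle fibres. The genes were chosen by name, with earlier results of these data known, and 33 of the 40 had a probe set of their own among the 22180 genes measured. Another 4 (H19, Zim3, Rtl1 and Snrpn) shared every listed probe set with a second gene symbol, and 3 (Zim2, Nespas and Slc22a3) were not listed under these names, although a probe set shared by Gnas and Gnasas1, a later name of Nespas, was present. Each sample was total RNA on 1 Affymetrix array. The control group (2 arrays) received a control siRNA, the siG9a group (3 arrays) an siRNA against G9a (gene Ehmt2) and the siGLP group (2 arrays) an siRNA against GLP (gene Ehmt1). Every group was kept in 15% fetal bovine serum and got 0.2 µmol of its siRNA in a 100 mm dish, and the harvest time was not given. Transient siRNA lowers a transcript without removing the gene, and since the labels do not call the replicates separate cultures, p-values reflect the spread of these arrays alone, which may be technical. The study asked whether the related enzymes have distinct roles in myoblasts.

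G9a and GLP are partner enzymes that methylate lysine 9 of histone H3, a mark of silent chromatin. At an imprinted cluster, a stretch of DNA called the imprinting control region is methylated in the egg or in the sperm and keeps that methylation through early development. The zinc-finger protein ZFP57 binds the methylated copy and, through TRIM28, brings in the enzymes that keep DNA and lysine 9 methylation there. G9a is known for silencing certain genes on the paternal copy in the placenta, under the long non-coding RNAs Airn and Kcnq1ot1. Mest, Igf2 and H19 are known imprinted genes of growing muscle and its precursors. The arrays measured RNA from both copies together, so no value below separates the maternal from the paternal copy.

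The promoters of Mest and Plagl1 carry methylation on the maternal copy and serve as control regions, and their sequences are shown because these genes have the values described most closely below. Capitals mark TGCCGC, the core letters that ZFP57 binds when methylated, or its reverse complement GCGGCA. The sequences are from RefSeq on GRCm38.p6, from 250 bases before to 50 bases after a transcript start, 5′ to 3′ on the strand of the gene. Mest is on the plus strand at chr6:30737800-30738099 and has 2 matches in this window. Plagl1 is on the plus strand at chr10:13090582-13090881 and has 1 match.
Mest promoter: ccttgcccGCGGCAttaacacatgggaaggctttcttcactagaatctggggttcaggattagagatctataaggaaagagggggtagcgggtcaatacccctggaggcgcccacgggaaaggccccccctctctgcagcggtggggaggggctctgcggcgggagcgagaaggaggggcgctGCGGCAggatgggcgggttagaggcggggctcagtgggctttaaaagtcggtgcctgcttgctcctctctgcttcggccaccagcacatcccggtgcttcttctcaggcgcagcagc
Plagl1 promoter: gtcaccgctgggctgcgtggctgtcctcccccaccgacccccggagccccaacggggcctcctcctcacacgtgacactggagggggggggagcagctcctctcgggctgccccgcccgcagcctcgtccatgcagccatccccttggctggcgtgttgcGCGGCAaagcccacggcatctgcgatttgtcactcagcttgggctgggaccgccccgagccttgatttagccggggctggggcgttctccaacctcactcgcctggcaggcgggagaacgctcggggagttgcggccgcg

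RefSeq promoters were given for 32 of the 40 genes, with 46 promoters in all, and none were given for H19, Peg10, Zim3, Rtl1, Impact, Sgce, Kcnq1 and Nespas. The 6-letter motif was searched on both strands (its 2 spellings can overlap at their ends). It was found in at least 1 promoter of 11 of the 32 genes (34.4%), against 13.1% of 27025 genes with a promoter of the same length. Among the 9 genes whose promoter is known as a control region the share was 6 (66.7%), and among the other 23 it was 5 (21.7%). The imprinted promoters had a median of 14 CpG dinucleotides in 300 bases, against 7 over all promoters. A match describes letters and not a bound site, and it was not used in any comparison of expression.

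Pairs of the mature microRNAs lying inside imprinted transcripts are shown because their host genes gave some of the largest differences. miR-675 is cut from H19 RNA (minus strand; chr7:142577112-142577133 and chr7:142577078-142577099), and miR-335 lies in an intron of Mest (plus strand; chr6:30741314-30741336 and chr6:30741354-30741375). Capitals mark the seed, bases 2 to 8, and no seed is shared between these 4 sequences.
mmu-miR-675-5p: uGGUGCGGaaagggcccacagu
mmu-miR-675-3p: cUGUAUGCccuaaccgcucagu
mmu-miR-335-5p: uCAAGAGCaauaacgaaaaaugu
mmu-miR-335-3p: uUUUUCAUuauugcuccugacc

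The targeted genes were lower in the matching groups. Ehmt2 read 7.56 and 7.46 in control, 6.31, 6.14 and 5.99 in siG9a, and 7.37 and 7.37 in siGLP, on the log2 signal scale used throughout. Its siG9a arrays lay below all others and stood at 38.8% of control (limma, Benjamini-Hochberg adjusted p = 0.0308). Ehmt1 read 6.71 and 6.73 in control, 6.74, 6.60 and 6.53 in siG9a, and 5.73 and 6.13 in siGLP. The siGLP arrays were the 2 lowest and stood at 58.0% of control, short of the threshold (limma with Benjamini-Hochberg adjustment, adjusted p = 0.197). All 8 myoblast markers gave signal between 7.34 and 12.6, above the 95th percentile of 1105 olfactory receptor genes (4.57), which are mostly silent outside the nose and describe the signal of an unexpressed gene. Of the markers of other cells, 1 of 5 leukocyte, 0 of 4 endothelial, 1 of 4 adipocyte, 2 of 4 neuronal and 1 of 4 epithelial genes passed that level. Summed log2 signals of marker lists moved with the groups. The 8 myoblast markers summed to 75.9 to 76.4 in control, 74.3 to 75.4 in siG9a and 75.0 to 75.2 in siGLP, and the 9 myotube markers to 44.5 to 44.8, 43.9 to 44.3 and 43.3 to 43.8. Both lay below control in both groups, with Myod1 0.68 lower in siG9a (limma, Benjamini-Hochberg adjusted p = 0.146) and Cdh15 0.51 lower in each. Other myoblast markers lay above control: Myf5 (0.13), Chrna1 (0.027) and Vim (0.0072) in siG9a, and Itga7 (0.075) and Chrna1 (0.051) in siGLP. Of the myotube markers in siGLP, Mymk (-0.71), Myog (-0.45), Mymx (-0.26) and Ckm (-0.15) lay below control. Myh3, Myh1, Myh2, Acta1 and Tnnt3 lay above it there, by 0.017 to 0.21. The 5 leukocyte markers summed to 21.1 to 21.4 in control, 21.9 to 22.2 in siG9a and 21.7 to 22.2 in siGLP, with Cd68 the 1 marker above the silent level. The 4 adipocyte markers summed to 14.4 to 14.5, 14.7 to 14.8 and 15.3 to 18.0, and the siGLP sum rested on Fabp4 (2.03), while Adipoq, Lep and Plin1 differed there by 0.10, 0.050 and 0.021. The part of these markers in the results below was not tested. In bulk RNA, fewer cells of a type and less RNA per cell cannot be told apart.

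About as many imprinted genes gave signal above as below the level of silent genes. Of the 33 measured, 16 (48.5%) had a mean above 4.57, against 56.6% of all genes, and 17 lay at or below it. Probes differ in response, so signals are compared between arrays and not between genes. Genes with signal well above it included Cd81, a membrane tetraspanin; Peg3, a zinc-finger protein; Peg10, a retrotransposon-derived gene of the placenta; Ube3a, a ubiquitin ligase; and Impact, a regulator of the translation kinase GCN2. The genes at or below the silent level were Ndn, Slc22a18, Meg3, Dlk1, Dio3, Magel2, Kcnq1, Ppp1r9a, Airn, Plagl1, Grb10, Rasgrf1, Slc22a2, Asb4, Usp29, Phlda2 and Ascl2. In 10 of the 33, 3 or more arrays held 1 identical value, a feature of 21.4% of all genes, so some small differences rest on 1 or 2 arrays.

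**Figure D1:**
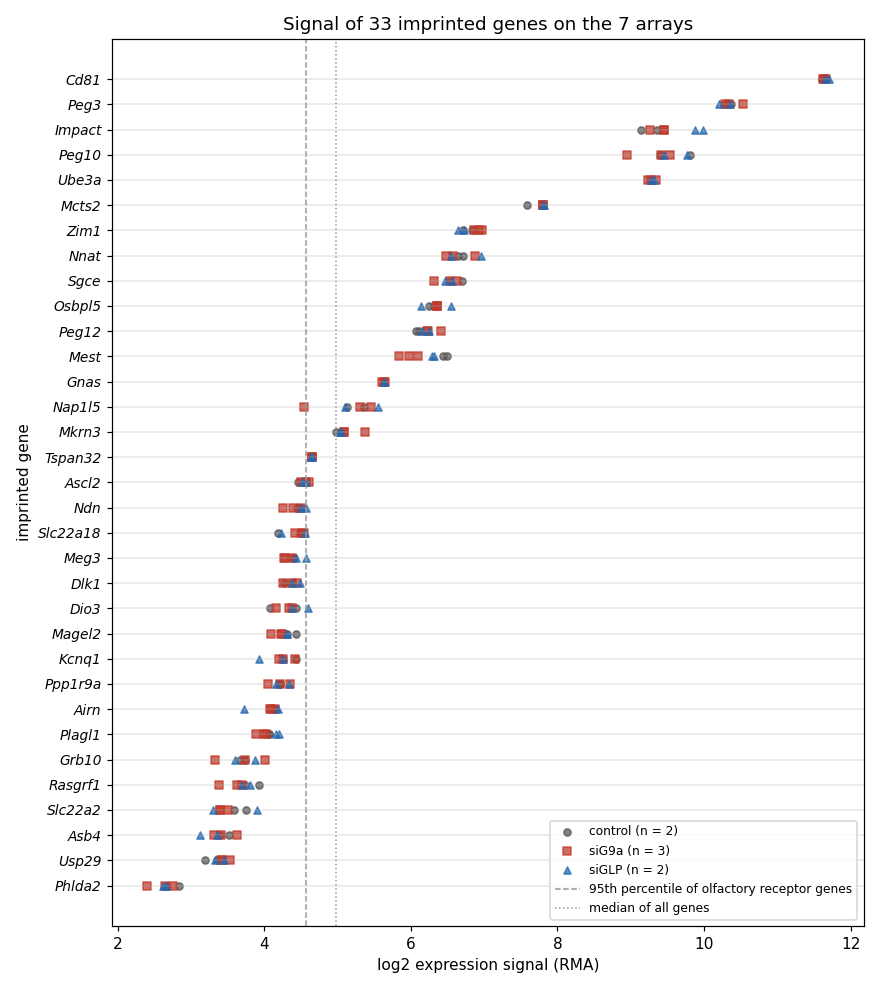
Log2 signal (horizontal axis) of the 33 measured imprinted genes on the 7 arrays, 1 row per gene, with grey circles for control, red squares for siG9a and blue triangles for siGLP. The dashed line is the 95th percentile of olfactory receptor genes (4.57) and the dotted line the median of all genes (4.98); 16 genes have a mean right of the dashed line, and the arrays of Impact, Mest and Peg10 are among the more widely spread.

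None of the 33 measured genes passed the threshold in any comparison. In siG9a against control, 0 passed and 3 had an unadjusted p under 0.05 (limma; 0.0271% of all genes passed and 10.5% had such a p). In siGLP against control, 0 passed and 1 had an unadjusted p under 0.05 (limma; 0.00451% and 8.63% of all genes). In siGLP against siG9a, 0 passed and 5 had an unadjusted p under 0.05 (limma; 0.234% and 12.4%). The siG9a and siGLP contrasts share the control arrays. Typical differences of imprinted genes were as small as those of all genes, with a median size of 0.086 in siG9a and 0.081 in siGLP, against 0.086 in both over all genes. The 95% confidence interval of an imprinted gene reached a median of 0.24 to either side in siG9a and 0.26 in siGLP. These intervals are not adjusted for the number of genes, so the size needed to pass the threshold was larger. Mest at -0.50 in siG9a and Impact at 0.68 in siGLP did not pass.

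**Figure D2:**
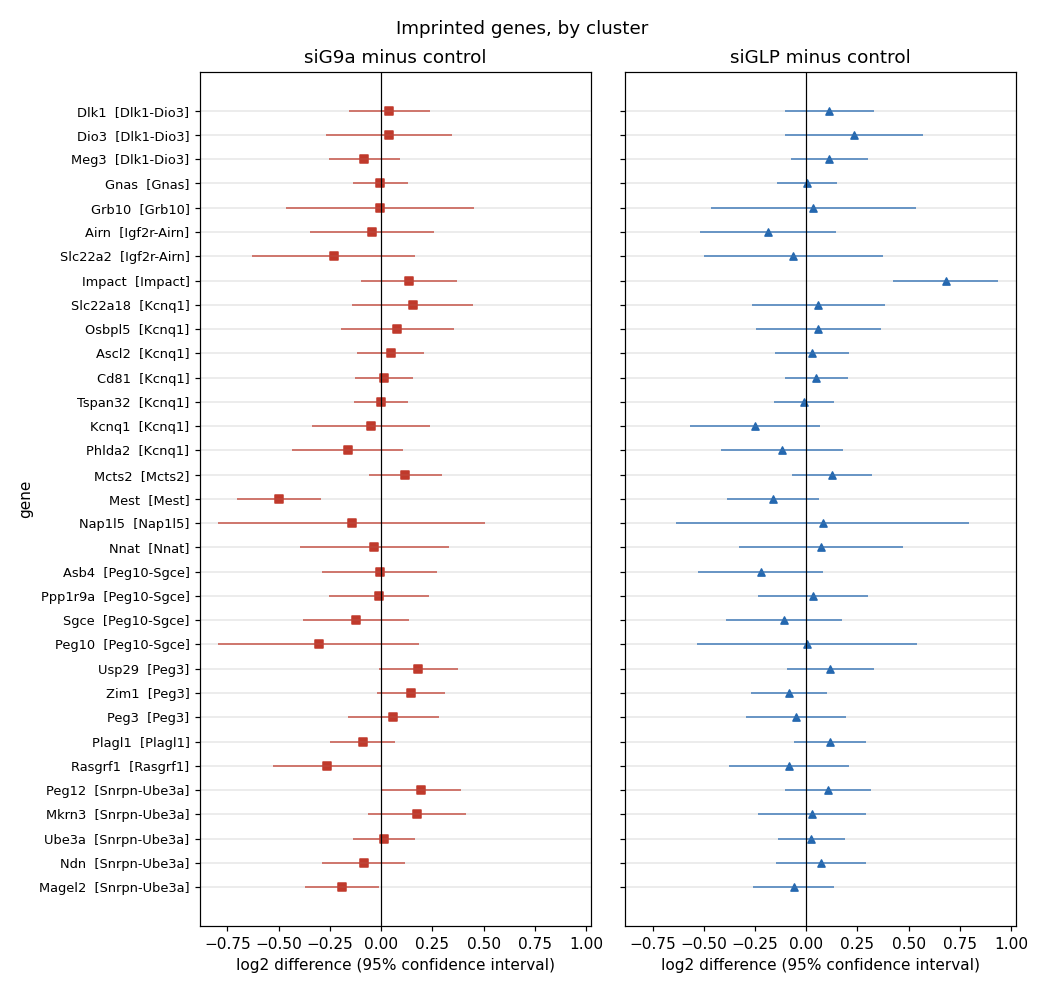
Log2 difference from control (horizontal axis) of the 33 imprinted genes in siG9a (left) and siGLP (right), with 95% confidence intervals from the limma fit; each row is a gene with its imprinted cluster in brackets. Mest lies at -0.50 on the left and Impact at 0.68 on the right, and most other intervals cross 0.

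With siG9a, the imprinted genes lay on both sides of control, with no difference over 0.5 in size (1.30% of all genes). Of 33, 14 lay above and 18 below control and 1 (Tspan32) was equal, with a median difference of -0.0063, against 0.0052 over all genes (48.0% below control). The equal gene, Tspan32, held 1 identical value on 6 of the 7 arrays. Of the 33, the arrays did not overlap for 6 genes above control (14.0% of all genes) and 6 below (11.7% of all genes). Among the 16 above the silent level, 9 lay above and 6 below control and 1 was equal. Their median was 0.013, against 0.0074 over all genes above that level. Mest, a paternally expressed gene of the hydrolase fold family that is active in mesoderm and muscle precursors, gave the largest difference. It read 6.49 and 6.44 in control, 5.97, 6.10 and 5.83 in siG9a, and 6.31 and 6.29 in siGLP. Every siG9a array lay below every control and siGLP array, and the siGLP arrays lay just below control. The siG9a signal stood at 70.8% of control, a log2 difference of -0.50 (95% confidence interval -0.70 to -0.29; limma, Benjamini-Hochberg adjusted p = 0.138), which did not pass over 22180 genes. It passed in a fit restricted to genes above the median level (limma, Benjamini-Hochberg adjusted p = 0.0447), and over the other alternatives its adjusted p stayed above the threshold. The probe set of Mir335, inside the same transcript unit, read 2.83 and 3.54 in control, 3.86, 3.77 and 3.61 in siG9a, and 3.67 and 3.61 in siGLP, all below the silent level. These arrays lay above control in both groups, by 0.56 in siG9a (SE 0.19; limma, Benjamini-Hochberg adjusted p = 0.375), the opposite side from Mest. The Mir335 value rested on control 1, since it was 0.21 without that array.

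The 4 genes next to Mest in smallness of p had differences of 0.18 to 0.26 in size. Magel2, a ubiquitin ligase regulator of the Prader-Willi region, read 4.44 and 4.32 in control, 4.23, 4.09 and 4.25 in siG9a, and 4.32 and 4.32 in siGLP. The siG9a arrays were the 3 lowest (-0.19, SE 0.076; limma, Benjamini-Hochberg adjusted p = 0.453), although the signal was at the silent level. Peg12, an intronless paternally expressed gene of the same region, read 6.12 and 6.07 in control, 6.24, 6.41 and 6.22 in siG9a, and 6.24 and 6.15 in siGLP. Both groups lay wholly above control, by 0.20 in siG9a (SE 0.080; limma, Benjamini-Hochberg adjusted p = 0.462) and 0.11 in siGLP (SE 0.088). Rasgrf1, an exchange factor for Ras, read 3.94 and 3.74 in control, 3.63, 3.39 and 3.70 in siG9a, and 3.81 and 3.70 in siGLP. Usp29, a ubiquitin protease gene beside Peg3, read 3.19 and 3.36 in control, 3.53, 3.41 and 3.42 in siG9a, and 3.34 and 3.45 in siGLP. Rasgrf1 lay below control in siG9a (-0.26, SE 0.11) and Usp29 above it (0.18, SE 0.082), without overlap, and both signals were under the silent level (limma, Benjamini-Hochberg adjusted p = 0.479 and 0.507). Without control 1 they were -0.16 and 0.098.

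With siGLP, 21 imprinted genes lay above and 12 below control, with a median of 0.029 against 0.0015 over all genes (49.0% below control). Without single arrays this median of the imprinted genes ran from 0.0039 to 0.030. Arrays did not overlap for 7 genes above (17.4% of all genes) and 3 below (16.9%). Impact, the paternally expressed inhibitor of GCN2 activation, was the single member with a difference over 0.5 in size (1.61% of all genes). It read 9.15 and 9.36 in control, 9.26, 9.46 and 9.46 in siG9a, and 9.99 and 9.88 in siGLP. Both siGLP arrays lay above all 5 others, while siG9a and control overlapped. The siGLP signal stood at 160% of control, a log2 difference of 0.68 (95% confidence interval 0.42 to 0.94; limma, Benjamini-Hochberg adjusted p = 0.184), and siG9a differed by 0.14 (interval -0.10 to 0.37). The next gene by RefSeq order on 1 side, Osbpl1a, a lipid-binding protein that was looked up after the Impact values were seen, read 6.39 and 6.39 in control, 6.57, 6.49 and 6.49 in siG9a, and 5.87 and 5.94 in siGLP. Osbpl1a thus lay on the other side of control from Impact in siGLP (-0.48, SE 0.069; limma, Benjamini-Hochberg adjusted p = 0.168), and it was lower in siGLP than in siG9a (-0.61, SE 0.063; limma, Benjamini-Hochberg adjusted p = 0.0356), a call lost without any 1 array (limma, adjusted p 0.113 to 0.228), with the replicate block (0.208) and without variance moderation (0.106). Hrh4, the next gene on the other side, differed by -0.091.

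Apart from Mest (-0.16, SE 0.095), whose array values are given above, the next genes by p in the siGLP comparison were Kcnq1, Asb4 and Dio3. Kcnq1, a potassium channel subunit, read 4.43 and 4.26 in control, 4.26, 4.20 and 4.42 in siG9a, and 4.26 and 3.93 in siGLP. Asb4, a substrate receptor of a ubiquitin ligase, read 3.40 and 3.53 in control, 3.64, 3.41 and 3.32 in siG9a, and 3.36 and 3.12 in siGLP. Dio3, which inactivates thyroid hormone, read 4.43 and 4.08 in control, 4.16, 4.33 and 4.38 in siG9a, and 4.38 and 4.59 in siGLP. Of these 3, the siGLP arrays of Asb4 alone lay clear of control, and the differences were -0.25 (SE 0.13), -0.22 (SE 0.13) and 0.23 (SE 0.14) in that order (limma, Benjamini-Hochberg adjusted p = 0.695 to 0.735). Single arrays moved these values widely: Dio3 differed by 0.41 without control 1 and 0.059 without control 2, and without siGLP 2 Kcnq1 differed by -0.084 and Asb4 by -0.10. All 3 signals were at or under the silent level.

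The direct comparison of siGLP with siG9a placed 21 imprinted genes higher in siGLP and 12 lower, with a median of 0.036 against -0.0037 over all genes (51.1% lower). Arrays did not overlap for 5 genes higher (12.1% of all genes) and 2 lower (14.2%). This median rested on 1 array, since it was -0.0097 without siG9a 3. That array was the lowest of the 7 for 11 of the 33 imprinted genes, against 13.7% of all genes. Impact, the 1 member past 0.5 in size here (1.60% of all genes), was 0.54 higher in siGLP (95% confidence interval 0.31 to 0.78; limma, Benjamini-Hochberg adjusted p = 0.0969) and Mest 0.33 higher (interval 0.13 to 0.54; adjusted p = 0.193). Impact passed in the fit restricted to genes above the median level (limma, Benjamini-Hochberg adjusted p = 0.0348) and with trended, robust variance moderation (adjusted p = 0.0349). Neither gene passed in any fit that left out an array.

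Plagl1, Zim1 and Meg3 followed in the direct comparison. Plagl1, a growth-restraining zinc-finger factor, read 4.06 and 4.06 in control, 4.02, 4.00 and 3.89 in siG9a, and 4.20 and 4.16 in siGLP. It was the 1 member with all siG9a arrays below and all siGLP arrays above control, a pattern of 1.06% of all genes (0 members had the reverse pattern, against 1.42%), and the groups differed by 0.21 (SE 0.067; limma, Benjamini-Hochberg adjusted p = 0.284). A second Plagl1 probe set read 2.88 and 2.46 in control, 2.22, 2.46 and 2.31 in siG9a, and 2.42 and 2.31 in siGLP, and both of its siGLP arrays lay below control (-0.31), the other side from the first. With the mean of both probe sets siGLP lay 0.12 above siG9a (limma, Benjamini-Hochberg adjusted p = 0.624), and both were under the silent level. Zim1, a maternally expressed zinc-finger gene beside Peg3, read 6.83 and 6.72 in control, 6.87, 6.97 and 6.93 in siG9a, and 6.73 and 6.65 in siGLP. Its siG9a arrays were the 3 highest, and siGLP lay 0.23 below siG9a (SE 0.071; limma, Benjamini-Hochberg adjusted p = 0.261). Meg3, a maternally expressed long non-coding RNA, read 4.41 and 4.37 in control, 4.27, 4.37 and 4.28 in siG9a, and 4.43 and 4.58 in siGLP, with siGLP 0.20 above siG9a (SE 0.073; limma, Benjamini-Hochberg adjusted p = 0.346). The siGLP arrays of Meg3 were the 2 highest, near the silent level.

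The probe set annotated to H19 and Mir675 together gave the largest difference from control seen at any probe set of a listed gene. H19 is a maternally expressed long non-coding RNA that restrains growth and is abundant in embryonic muscle. The probe set read 8.83 and 8.61 in control, 8.33, 8.38 and 7.92 in siG9a, and 7.55 and 8.10 in siGLP. Every siG9a and siGLP array lay below both control arrays, while the siG9a and siGLP arrays overlapped. In a fit over all 33649 probe sets, siGLP differed by -0.90 (SE 0.22; limma, unadjusted p = 0.0053, Benjamini-Hochberg adjusted p = 0.385), which is 53.8% of control. In the same fit siG9a differed by -0.51 (SE 0.20; limma, unadjusted p = 0.041, adjusted p = 0.534). It does not separate H19 from miR-675, whose mature sequences are shown above, and is not counted among the 33. Igf2, the growth factor gene that shares its control region with H19, read 4.50 and 4.77 in control, 4.41, 4.85 and 4.68 in siG9a, and 4.58 and 4.56 in siGLP. Its groups overlapped, with differences of 0.011 in siG9a (SE 0.14) and -0.066 in siGLP (SE 0.15).

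**Figure D3:**
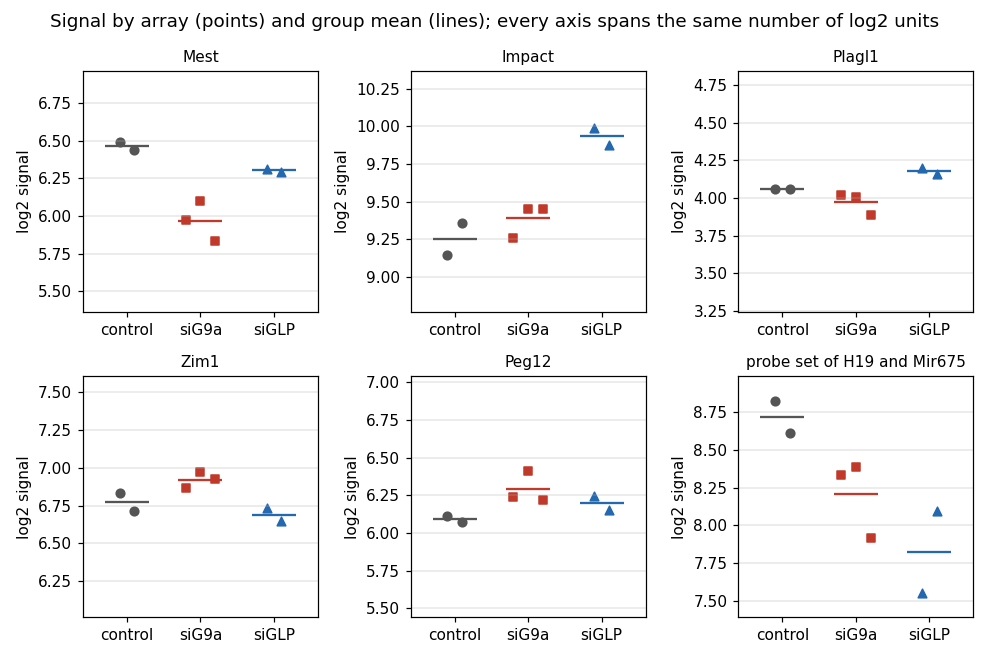
Log2 signal (vertical axis) on each array for Mest, Impact, Plagl1, Zim1, Peg12 and the probe set annotated to H19 and Mir675, with points for arrays, lines for group means, and the same span on every axis. The 3 siG9a arrays of Mest (5.83 to 6.10) lie below all others, the siGLP arrays of Impact (9.99 and 9.88) above all others, and both siRNA groups of the H19 and Mir675 probe set below control.

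The Peg3 cluster holds paternally expressed Peg3 and Usp29, which start from opposite strands of 1 control region, and maternally expressed Zim1. Peg3 read 10.37 and 10.29 in control, 10.53, 10.35 and 10.28 in siG9a, and 10.35 and 10.21 in siGLP. The groups overlapped, with differences of 0.060 (95% confidence interval -0.16 to 0.28) in siG9a and -0.048 (interval -0.29 to 0.19) in siGLP. The probe set shared by Peg3 and its antisense transcript Peg3os differed by 0.026 and -0.071. The 3 genes of the cluster all lay above control in siG9a, by 0.060 to 0.18, and none passed. The shared probe set of Zim3 and Usp29 differed by -0.096 in siG9a, the other side from Usp29 alone.

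In the Snrpn to Ube3a region, the mouse counterpart of the Prader-Willi and Angelman region, 3 of 5 measured genes lay above control in siG9a and 4 of 5 in siGLP. Ube3a read 9.27 and 9.27 in control, 9.35, 9.27 and 9.23 in siG9a, and 9.32 and 9.27 in siGLP. Its groups overlapped, with intervals of -0.14 to 0.16 in siG9a and -0.14 to 0.19 in siGLP, and 4 of the 7 arrays held 1 identical value. A second Ube3a probe set read 5.14 and 5.08 in control, 5.24, 5.16 and 5.08 in siG9a, and 5.39 and 5.15 in siGLP. That set differed by 0.052 (SE 0.092) in siG9a and by 0.16 (SE 0.10) in siGLP, where both arrays lay above control. The brighter of 2 probe sets shared by Snrpn and Snurf, from the start of this region's paternal transcript, read 7.24 and 7.17 in control, 7.19, 7.26 and 6.83 in siG9a, and 7.33 and 7.09 in siGLP, again with overlap. Ndn, a regulator of neuronal survival and muscle regeneration, differed by -0.086 in siG9a and 0.072 in siGLP. Mkrn3, a brake on puberty, differed by 0.17 in siG9a (SE 0.10) with all 3 arrays above control, and by 0.029 in siGLP.

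The 3 measured genes of the Dlk1 to Dio3 region gave signal at the silent level. Dlk1, a Notch-related factor that restrains adipocyte formation, read 4.38 and 4.27 in control, 4.38, 4.45 and 4.26 in siG9a, and 4.38 and 4.49 in siGLP, all at the silent level. Its differences were 0.040 (SE 0.084) in siG9a and 0.11 (SE 0.092) in siGLP, within the spread between arrays. All 3 measured genes of the region lay above control in siGLP, by 0.11 to 0.23, and none passed. The probe set that Meg3 shares with Mir770 differed by -0.068 in siGLP and the one it shares with Mir1906 by -0.091, the other side from the probe set of Meg3 alone. In siGLP against siG9a these shared sets differed by -0.077 and -0.063. Of 6 probe sets shared by Rtl1 and microRNAs, differences in siG9a lay between -0.15 and 0.12, and in siGLP between -0.085 and 0.19. In siGLP against siG9a they lay between -0.21 and 0.26. The highest was the set shared with Mir434, whose siGLP arrays lay above all others, with signal of 2.91 to 3.27, under the silent level. The one shared with Mir432 read 5.20 to 5.74 and the one shared with Mir431 read 4.69 to 4.75, both above the silent level.

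The Kcnq1 and Airn domains are those where G9a is known for placental silencing of maternally expressed genes. Of 7 measured Kcnq1-domain genes, 4 lay above control in siG9a, with Tspan32 equal, and 4 in siGLP, and the differences ran from -0.16 to 0.15 in siG9a and from -0.25 to 0.060 in siGLP. Cd81 read 11.65 and 11.61 in control, 11.67, 11.62 and 11.64 in siG9a, and 11.71 and 11.65 in siGLP. The arrays lay within 0.10 of each other, with intervals of -0.13 to 0.15 in siG9a and -0.10 to 0.20 in siGLP. Phlda2, a growth-restraining gene of the placenta, differed by -0.16 (SE 0.11) and -0.12 (SE 0.12) with signal under the silent level. Ascl2, Tspan32, Osbpl5 and Slc22a18, which include a trophoblast regulator and a lipid-binding protein, differed by at most 0.15 in size in siG9a. Airn itself read 4.15 in both control arrays, 4.15, 4.07 and 4.09 in siG9a, and 3.73 and 4.19 in siGLP, and Slc22a2, an organic cation carrier of that domain, was under the silent level too. Their siG9a arrays lay below control without overlap, by -0.045 and -0.23 (11.7% of all genes lay so). For Airn the separation was slight, since siG9a 1 read 4.1455 against 4.1478 in both control arrays. Igf2r, the receptor that clears the growth factor IGF2, differed by -0.039 (SE 0.12) in siG9a and -0.050 (SE 0.13) in siGLP.

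Among the remaining clusters, Peg10 read 9.81 and 9.40 in control, 9.54, 9.41 and 8.95 in siG9a, and 9.76 and 9.45 in siGLP. Its siG9a difference of -0.31 (SE 0.21) came with a range of 0.86 over the arrays, and siG9a 3 was the lowest. Sgce, a sarcoglycan that starts beside Peg10, differed by -0.12 (SE 0.11) in siG9a and -0.11 (SE 0.12) in siGLP. Nap1l5, a histone chaperone relative, had the widest interval, since siG9a 1 read 4.54 while the other 6 arrays read 5.10 to 5.55. Nnat, a membrane protein of developing brain, differed by -0.033 and 0.072, and its second probe set by 0.0093 and 0.17. Gnas, the stimulatory G protein subunit, differed by less than 0.01 in either group, with intervals of -0.14 to 0.13 and -0.14 to 0.15, and the probe set it shares with Gnasas1 by -0.030 and -0.12. Mcts2, a retrogene in an intron of another gene, lay above control in both groups, by 0.12 (SE 0.075) and 0.13 (SE 0.082). For Mcts2, and for Gnas on its own probe set, 4 of the 7 arrays held 1 identical value, including all siG9a arrays of Mcts2. Grb10, an adaptor that restrains insulin signalling, differed by -0.0063 and 0.034 under the silent level.

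Grouping by the active copy or by control region gave no group with a gene past the threshold. The 15 genes labelled as maternally expressed had median differences of -0.0036 in siG9a and 0.026 in siGLP. For the 18 labelled as paternally expressed they were -0.039 and 0.072. These labels were assigned gene by gene, and the active copy was not read in these cells. Of the 33 genes, 17 lay at or below the silent level. The 11 genes with a control region at the promoter had medians of -0.045 and 0.072, and the other 22 had -0.0018 and 0.029. The group of 11 includes both Mest and Impact.

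A second list of 51 measured imprinted genes, written from general knowledge, gave 28 above and 23 below control in siG9a, and 33 above, 17 below and 1 equal in siGLP. None passed against control. The smallest p-values in siG9a belonged to Casd1, a sialic acid acetyltransferase beside Peg10 and Sgce (-0.54, SE 0.12), Ins2, an insulin gene (-0.24, SE 0.073), and Tssc4 of the Kcnq1 domain (0.28, SE 0.090; limma, Benjamini-Hochberg adjusted p = 0.204 to 0.346 for the 3). In siGLP they belonged to Htr2a, a serotonin receptor (0.44, SE 0.075), Pon3, a lactonase (0.48, SE 0.15), and Ins2 (-0.21, SE 0.080; limma, Benjamini-Hochberg adjusted p = 0.197 to 0.523 for the 3). Ins2 lay under the silent level on all arrays (control mean 3.78), and 3 arrays held 1 identical value. Casd1 read 7.33 and 7.61 in control, 7.09, 6.96 and 6.75 in siG9a, and 7.52 and 7.42 in siGLP, with siG9a below all others. In siGLP against siG9a, 1 of the 51 passed, Htr2a, which was 0.58 higher in siGLP (limma, Benjamini-Hochberg adjusted p = 0.0409; 0.234% of all genes passed). That call was lost without any 1 array (adjusted p 0.121 to 0.224, limma), with the replicate block (0.220) and without variance moderation (0.130). Htr2a read 4.61 in both control arrays, 4.50, 4.41 and 4.51 in siG9a, and 4.99 and 5.11 in siGLP, close to the silent level. Cdkn1c, a cell cycle inhibitor of the Kcnq1 domain, differed by -0.14 (SE 0.18) in siG9a and -0.12 (SE 0.20) in siGLP. Copg2, a coat protein gene next to Mest, differed by 0.21 in siG9a (SE 0.085), the other side from Mest, and by -0.18 in siGLP (SE 0.093). Cep41, the next gene by RefSeq order on the other side of Mest, differed by 0.16 (SE 0.095) and -0.11 (SE 0.10).

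None of the 32 measured factors that set, read or keep marks at imprinted loci passed the threshold. In siG9a 21 of the 32 lay below control and in siGLP 25, against the same 2 control arrays and with no test of the group, with medians of -0.057 and -0.049 (48.0% and 49.0% of all genes lay below). In siGLP against siG9a 18 were higher and 14 lower. Zfp57 read 7.07 and 6.68 in control, 6.47, 6.49 and 6.16 in siG9a, and 6.91 and 6.86 in siGLP. The siG9a arrays were the 3 lowest, 0.51 below control (SE 0.14; limma, Benjamini-Hochberg adjusted p = 0.290; -0.31 without control 1), while siGLP lay within the control range (0.0073). Uhrf1, which guides DNA methylation maintenance, read 9.90 and 9.87 in control, 9.70, 9.67 and 9.51 in siG9a, and 9.76 and 9.90 in siGLP (siG9a -0.26, SE 0.082). Ezh2, the lysine 27 methyltransferase, differed by -0.17 in siG9a (SE 0.064), and both had siG9a arrays below all controls. Dnmt1, the maintenance DNA methyltransferase, differed by -0.14 (SE 0.097) in siG9a and -0.037 (SE 0.11) in siGLP, and Trim28 by -0.17 (SE 0.068) and -0.039 (SE 0.075). In siGLP the smallest p-values belonged to Daxx, a histone H3.3 chaperone (-0.32, SE 0.088), Nlrp5, an egg factor at background signal (0.40, SE 0.12), and Dnmt3a, a de novo DNA methyltransferase (-0.37, SE 0.11; limma, Benjamini-Hochberg adjusted p = 0.370 to 0.420 for the 3).

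**Figure D4:**
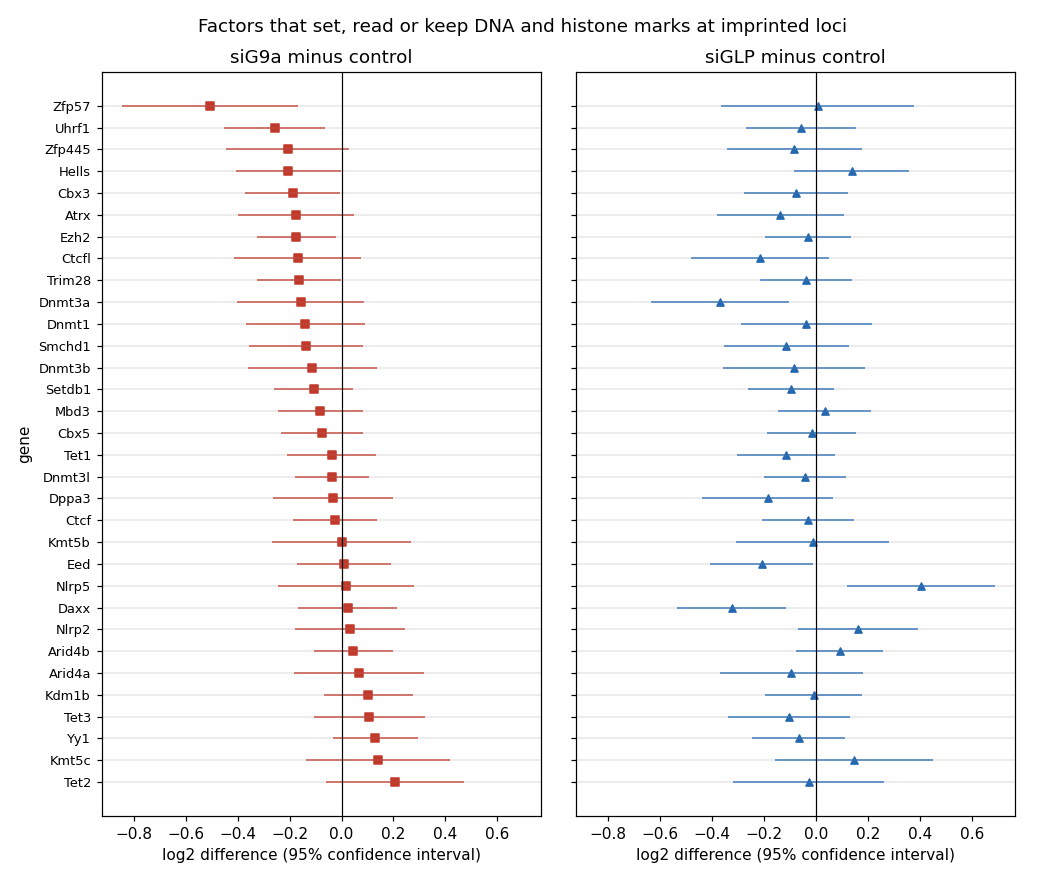
Log2 difference from control (horizontal axis) of the 32 measured factors that set, read or keep marks at imprinted loci, in siG9a (left) and siGLP (right), with 95% confidence intervals from the limma fit and 1 row per gene. On the left 21 points and on the right 25 lie below 0; Zfp57 is the lowest on the left at -0.51, and Dnmt3a the lowest on the right at -0.37.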

How the data were processed

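RNA of 7 C2C12 samples was measured on 1-colour Affymetrix arrays, with 100 ng of total RNA per labelling, per the labels' protocols. The authors deposited 1 log2 value per probe set and array, made with RMA and Partek per the submitters' processing notes. RMA corrects background, equalises distributions between arrays and summarises probes, which compresses differences of dim genes and makes values relative to the bulk of transcripts. Array medians were 4.54 to 4.59. That the scale is log2 was read from the range of values. Scan dates, batches and the build of the array annotation were not given. Scanner files were not used here.

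Of 33649 probe sets, 23521 had 1 gene symbol, 1814 several and 8314 none, and 23328 matched RefSeq by gene number. The brightest probe set per gene was kept (1082 genes had several), with no filter on level. Tests used limma 3.58.1 with R 4.3.3 (lmFit and eBayes, all 7 arrays, 1 mean per group, 4 residual and 6.89 moderated degrees of freedom, two-sided), with Benjamini-Hochberg adjustment over 22180 genes and a threshold of 0.05. The fit was tested on simulated data. The number of arrays limits the precision. Shared probe sets were fitted over all probe sets, an alternative chosen after the data were seen, as were the alternatives for Htr2a, Osbpl1a, Mir335, Casd1, Zfp57 and the H19 probe set.

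Array values are given for Ehmt2, Ehmt1, the 5 members with the smallest p per contrast, the 5 with the highest control mean, and preset genes. From the lists of other imprinted genes and of factors, the 3 with the smallest p against control and 7 preset genes are named. Osbpl1a, Hrh4, Copg2, Cep41, Mir335 and the members outside these rules were named after their values were seen. The members and lists were chosen with earlier results of these data known, so their direction is not independent evidence.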

Additional observations from a re-analysis of the deposited data

Results flagged for a closer look

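Htr2a, a serotonin receptor gene of the second imprinted list, differed between the knockdowns. It lay 0.44 above control in siGLP and 0.14 below it in siG9a, a difference between the groups of 0.58 (SE 0.069; limma, Benjamini-Hochberg adjusted p = 0.0409). All 3 siG9a arrays (4.41 to 4.51) lay below and both siGLP arrays (4.99 and 5.11) above the control value of 4.61. The control signal was close to the 95th percentile of olfactory receptor genes (4.57), and how that bears on the difference was not tested. The call was lost without any 1 array (limma, Benjamini-Hochberg adjusted p = 0.121 to 0.224), with the replicate block (0.220) and without variance moderation (0.130).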

How the results depend on the processing

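The 33 imprinted genes kept 0 calls under most settings. There was 1 call in siG9a against control in the fit restricted to genes above the median level (Mest, -0.50), and 1 in siGLP against siG9a under that restriction and under trended, robust variance moderation (Impact, 0.54). All 245 values of named members over 16 settings kept their direction, but sizes moved. The kept direction says little, since level filters, changes of moderation and arrays outside a contrast leave its differences as they are. Most of these members were also picked by p in the same arrays. Without single arrays, siGLP differences ranged from 0.059 to 0.41 for Dio3, -0.42 to -0.084 for Kcnq1 and -0.34 to -0.10 for Asb4, and siG9a differences from 0.098 to 0.26 for Usp29 and -0.36 to -0.16 for Rasgrf1. Leaving out single arrays gave 0 imprinted calls, and Mest ranged from -0.56 to -0.43 in siG9a and Impact from 0.57 to 0.79 in siGLP. Over all genes, 6 passed in siG9a, 1 in siGLP and 52 in siGLP against siG9a. Restricted to genes above the median level these were 148, 21 and 350, with trended, robust moderation 100, 23 and 304, and above the 30th percentile 30 in siG9a and 171 in siGLP against siG9a. Without moderation they were 0, 0 and 3, and with only the groups of the contrast 0 in each. Leaving out each array in turn gave 0 to 0 in siG9a, 0 to 1 in siGLP and 0 to 0 in siGLP against siG9a. The cause was not tested. With the replicate number as a block the counts were 0 in each comparison, and the imprinted median in siGLP against siG9a was -0.0097, against 0.036 without the block (-0.0097 to 0.060 without single arrays). Only siG9a has a replicate 3, so the block takes up siG9a 3 and its differences are those found without that array. The replicate numbers were not taken as pairing the arrays, since only 2 are shared by all groups and deviations of like-numbered arrays correlated at 0.083, 0.10 and 0.18 across genes. No normalization moved the median of all genes by over 0.1, which says little, since the deposited array medians already lay at 4.54 to 4.59. The small number of arrays, and signal near that of silent genes for 17 members, limit what could be detected.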
